A study of Mus musculus with 3 samples.

Results

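The Z-disc and sarcomere assembly genes examined here were Ttn, Actn2, Tcap, Ldb3, Csrp3, Myoz2, Nebl, Fhod3, Cap2 and Smpx. They were taken by gene name from the count and FPKM tables of the series, and all 10 were found among the 54532 genes listed. The 3 RNA-seq libraries, 1 per condition, came from cardiac fibroblasts of adult Myh6-mCherry mice that had undergone myocardial infarction 5 days before isolation (MICFs). The MICFs library was made from such cells without virus after the same time in culture, and the design describes no sort by mCherry for it. GMTMS-iCMs had been transduced with Gata4, Mef2c, Tbx5, Myocd and Sall4 and kept for 4 weeks in medium with 1 μg/ml doxycycline. The library titled GMTMM-iCMs is described as made in the same way with Mesp1 in place of Sall4, which its own counts go against. Both kinds of induced cardiomyocytes (iCMs) were sorted for mCherry, which is driven by the Myh6 promoter in these mice, and 5 sorted samples were mixed before RNA extraction. With 1 library per condition no difference has a replicate check. In RNA from mixed cells, fewer cells of a type and less RNA per cell cannot be told apart. Unless said otherwise, 3 values in a row belong to MICFs, then GMTMS-iCMs, then the library titled GMTMM-iCMs.

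The sarcomere is the contractile unit of striated muscle, and the Z-disc is the plate at each of its ends in which actin filaments of neighbouring sarcomeres are anchored. Alpha-actinin crosslinks these filaments, titin spans from the Z-disc to the middle of the sarcomere, and small adaptor proteins join both to signalling proteins. Formins and other actin regulators set how the filaments grow during assembly, and in heart muscle several of these genes are known for mutations that cause cardiomyopathy.

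The libraries held 11861773, 10624118 and 11904484 counts. The labels were checked first. Sall4 had 0, 1190 and 1060 counts and Mesp1 had 0 in every library, so the last is called the library labelled GMTMM throughout and each direction drawn from it carries this doubt. Among 6 cardiomyocyte markers, 5 were above MICFs by the rule given below in either kind of transduced cells, and Pln had at most 2 counts anywhere. The 6 markers summed to 1.28, 668 and 238 FPKM. The 7 fibroblast markers summed to 1338, 194 and 2519 FPKM, the 5 macrophage markers to 7135, 13564 and 6379 FPKM, and the 4 endothelial markers to 341, 9.06 and 258 FPKM. Genes of other cell types were therefore counted in each sorted library. Lyz2 alone held 6135, 11353 and 5495 FPKM of the macrophage sums. By the rule given below, 1 of the 5 macrophage markers was above MICFs in GMTMS-iCMs (median difference 0.22). In the library labelled GMTMM 1 of the 5 was below (median -0.68), and 1 of the 7 fibroblast markers was above (median 0.25). The 13 skeletal muscle markers summed to 2.58, 23.6 and 14.2 FPKM. Of these, Myod1, Myog, Myf5, Myf6, Myh4 and Tnnc2 were at 0 in all 3 libraries. Mylpf, a fast skeletal myosin light chain, had 10, 157 and 76 counts and exceeded MICFs on the log2 scale given below by 3.31 in GMTMS-iCMs and by 2.09 in the library labelled GMTMM, where Tnnt3 was also higher, by 1.07. The 7 smooth muscle markers summed to 246, 409 and 558 FPKM, of which Acta2 alone held 182, 300 and 445. By the same rule 2 of them were above MICFs in GMTMS-iCMs and 1 was below (Smtn, -2.67), with a median difference of 0.44. In the library labelled GMTMM 3 were above and 0 below, with a median of 0.72. The part of these cell types in the values below was not tested.

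Compared with MICFs, 8 of the 10 Z-disc and assembly genes were higher in GMTMS-iCMs and none was lower, and Nebl and Myoz2 stayed within the limit. A gene is called higher or lower here when its log2 (quantile-normalized FPKM + 1) differs by over 1, and no test stands behind this call. Of all genes, 3.13% were higher and 2.72% lower by that rule, and of those with more than 10 counts in either library 9.29% and 9.05%. That filter was passed by 9 of the 10 genes, all but Myoz2. The median difference of the 10 genes was 2.16, against -0.00217 over the 24819 genes counted in at least 1 library, and it was 2.13 with libraries under 3 counts set at 3 counts. The 10 genes were chosen with earlier results of these data known, so setting them against all genes is a description only. The largest differences were those of Ldb3 (3.11), Actn2 (3.04), Tcap (2.81) and Fhod3 (2.60). In the library labelled GMTMM 7 of the 10 genes were higher than in MICFs and none was lower, against 2.12% higher and 1.30% lower of all genes and 6.55% and 3.61% of those with more than 10 counts. The median difference was 1.47, against -0.01 over all genes counted. With libraries under 3 counts set at 3 counts this median was 1.37. On the scales of TMM or DESeq2 size factors all 10 genes were higher there, and 9 in GMTMS-iCMs. Neither scale divides by gene length, and both add their constant to counts rather than to FPKM. The shares of all genes on those scales were not computed, and Nebl passed in the library labelled GMTMM with 5 counts against 1 in MICFs. Both comparisons share the MICFs library. Together the 10 genes took 167, 5271 and 1606 counts, and Ttn alone held 62.7% of those in GMTMS-iCMs but 30.5% of those in the library labelled GMTMM.

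Of the filament crosslinkers and the titin system, Actn2 and Ttn came first. Actn2 (ENSMUSG00000052374, GRCm38 chromosome 13 from 12269426 to 12340760) encodes the alpha-actinin of cardiac muscle. It had 0, 253 and 96 counts, which are 0, 7.18 and 2.17 FPKM. It was at least 131-fold higher in GMTMS-iCMs and at least 39.4-fold higher in the library labelled GMTMM than 3 counts in MICFs would be. Ttn (ENSMUSG00000051747, chromosome 2 from 76703980 to 76982547) encodes titin, the giant elastic protein that also serves as a scaffold for assembly, and its gene model holds 116825 exon bases. It had 20, 3305 and 490 counts, or 0.0119, 3.05 and 0.359 FPKM. Its ratio to MICFs was 256-fold in GMTMS-iCMs (95% Clopper-Pearson interval 165 to 420) and 30.2-fold in the library labelled GMTMM (19.3 to 49.8). All such intervals cover counting error only. The long model makes the FPKM small, so the 30.2-fold ratio was a difference of 0.42 on the log2 scale and Ttn was not among the 7 genes called there. By TMM log2 CPM, which does not divide by length, its difference in that library was 4.73. Tcap (ENSMUSG00000007877, chromosome 11 from 98383811 to 98384953), encoding telethonin, the cap that binds titin ends in the Z-disc, had 3, 66 and 39 counts. These are 0.220, 7.50 and 3.52 FPKM, and the ratio of GMTMS-iCMs to MICFs was 34.1 (11.2 to 169).

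The adaptor genes were low or at 0 in MICFs with the exception of Ldb3. Ldb3 (ENSMUSG00000021798, chromosome 14 from 34526603 to 34588682) encodes Cypher or ZASP, a PDZ and LIM domain protein that binds alpha-actinin. It had 87, 938 and 488 counts, or 0.990, 16.5 and 6.84 FPKM, the highest level of the 10 genes in every library. Ldb3 was 16.7-fold higher in GMTMS-iCMs than in MICFs (13.4 to 21.1) and 6.91-fold higher in the library labelled GMTMM (5.49 to 8.78). Csrp3 (ENSMUSG00000030470, chromosome 7 from 48830398 to 48848033) encodes muscle LIM protein, which has been linked to stretch sensing at the Z-disc. Its counts were 0, 68 and 38, or 0, 2.74 and 1.22 FPKM, at least 35.1-fold and at least 15.6-fold higher than 3 counts in MICFs would be. Smpx (ENSMUSG00000041476, chromosome X from 157698910 to 157752591) encodes a small protein of striated muscle. It had 0, 67 and 39 counts, or 0, 3.17 and 1.47 FPKM, at least 34.6-fold and at least 16.0-fold higher. Smpx lies on the X chromosome, and the counts of Xist, the RNA that coats the inactive X chromosome of female cells, also differed among the libraries, at 11855, 5279 and 1618. The part of this difference in the Smpx values was not tested.

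The actin regulators Fhod3 and Cap2 were already counted in MICFs. Fhod3 (ENSMUSG00000034295, chromosome 18 from 24709445 to 25133500) encodes a formin that is needed for actin filaments in heart sarcomeres. It had 23, 340 and 213 counts, or 0.296, 6.77 and 3.37 FPKM, and was 22.9-fold (15.0 to 36.6) and 11.4-fold (7.40 to 18.4) higher than in MICFs. Cap2 (ENSMUSG00000021373, chromosome 13 from 46501848 to 46650281) encodes a cyclase-associated protein of heart, skeletal muscle and brain that promotes actin turnover. It had 32, 217 and 188 counts, or 0.535, 5.62 and 3.87 FPKM, and was 10.5-fold (7.23 to 15.7) and 7.24-fold (4.96 to 10.9) higher. Among the 6 genes with at least 1 count in MICFs and over 10 in GMTMS-iCMs, Cap2 had the smallest ratio of GMTMS-iCMs to MICFs.

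Nebl and Myoz2 stood apart from the others by their low counts. Nebl (ENSMUSG00000053702, chromosome 2 from 17343909 to 17731464) encodes nebulette, a cardiac protein that ties actin filaments to the Z-disc. It had 1, 17 and 5 counts, or 0.00456, 0.120 and 0.0281 FPKM. The ratio of GMTMS-iCMs to MICFs was 26.3 (4.13 to 1101), above 1 by more than its counting error, yet the difference on the log2 scale was 0.17 because both values lie far below the pseudocount of 1, and by TMM log2 CPM it was 3.01. The ratio of the library labelled GMTMM to MICFs was 6.16 (0.689 to 291), which holds 1. Myoz2 (ENSMUSG00000028116, chromosome 3 from 123006206 to 123035015) encodes calsarcin-1, which links alpha-actinin to the phosphatase calcineurin. Its counts were 1, 0 and 10, and the ratio of the library labelled GMTMM to MICFs was 12.3 (1.75 to 535). A change between GMTMS-iCMs and MICFs was not detectable at this depth, since 0 counts in GMTMS-iCMs allow up to 3 counts, or 0.282 CPM. Myoz2 was the single gene of the 10 with a lower count in GMTMS-iCMs than in the library labelled GMTMM, where it was at least 2.65-fold higher than 3 counts in GMTMS-iCMs would be.

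**Figure D1:**
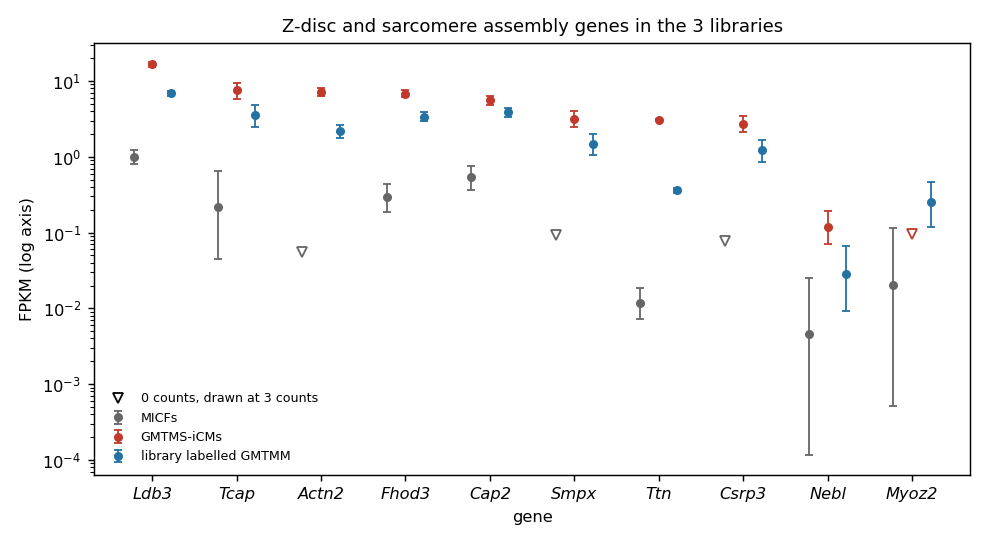
FPKM on a log axis (vertical) of the 10 genes (horizontal, in order of their level in GMTMS-iCMs) for each of the 3 libraries. Bars are exact 95% Poisson intervals on the counts, open triangles mark 0 counts drawn at 3 counts, and GMTMS-iCMs lie above the other libraries for every gene except Myoz2.

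The order of levels per gene length was read within each library from FPKM. In GMTMS-iCMs Ldb3 (16.5 FPKM) stood above Tcap (7.50), and Tcap, Actn2 (7.18) and Fhod3 (6.77) followed with neighbours that did not differ beyond counting error. Cap2 (5.62) and Smpx (3.17) came next, each below its upper neighbour by more than counting error, and Smpx, Ttn (3.05) and Csrp3 (2.74) formed a group of neighbours that could not be separated. In the library labelled GMTMM Ldb3 (6.84) was again first, followed by Cap2 (3.87), Tcap (3.52) and Fhod3 (3.37), whose neighbours did not differ. Ttn was at rank 8 there with 0.359 FPKM, below Csrp3 (1.22) by more than counting error. Among the genes with at least 1 count in GMTMS-iCMs, Ldb3 reached percentile 85.1 of FPKM, Actn2 72.8 and Ttn 58.4, whereas Myh6 and Tnnt2 reached 99.0 and 97.0. The level of Ldb3 was 19.2% of that of Tnnt2, cardiac troponin T, in GMTMS-iCMs (17.9 to 20.5), and that of Actn2 was 8.31% (7.30 to 9.43).

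The bases before the start site were searched for motifs of some factors in the cocktails and of other factors, because 8 of the 10 genes were higher together in GMTMS-iCMs. No motif of Sall4 or Mesp1 was searched. The RefSeq promoter table (GRCm38.p6) matched 8 of the 10 genes, with 13 start sites. Tcap and Fhod3, both among the genes called higher, had no entry. The 250 bases before each start were searched on both strands for the CArG box bound by SRF, the partner of Myocd, the MEF2 site, the GATA motif (AGATAA or TGATAA), the T-box motif (AGGTGT) and the MCAT element (CATTCC) bound by TEAD factors. A CArG box lay before 3 of the 13 starts, of which 2 share the same site of Ldb3 and 1 belongs to Nebl, and before 1.47% of 32851 promoters. A MEF2 site lay before 2 of the 13 starts, those of Ttn and Myoz2, and before 2.92% of all promoters. The GATA motif was found before 3 of the 13 starts (Nebl and Smpx), the T-box motif before 2 (Csrp3 and Nebl) and the MCAT element before 1 (Nebl), against 16.6%, 11.8% and 12.6% of all promoters. No 2 of these matches overlapped. Nebl, with matches to every motif but the MEF2 site, and Myoz2 were not called higher in GMTMS-iCMs. The other genes with a match, Ttn, Ldb3, Csrp3 and Smpx, were called higher, and so were Actn2 and Cap2 without one. Whether the matches bear on the differences was not tested. A match describes the letters of these windows and is not a site or a cause. The sequences below are those of Ttn, with the largest ratio between the transduced libraries, of Ldb3, with the highest level, of Actn2 and Csrp3, with 0 counts in MICFs and no match before the start shown, and of Myoz2, with 0 counts in GMTMS-iCMs. They run 5′ to 3′ toward the start and end at the RefSeq start or, where a GENCODE exon of the gene reaches further upstream, just before that exon. Capitals mark the MEF2 site of Ttn, at -166 to -157 relative to the start, and the CArG box of Ldb3 at -35 to -26. The MEF2 site of Myoz2 at -33 to -24 from the RefSeq start runs into an exon of the GENCODE annotation and is not within the bases shown.
Ttn, GRCm38.p6 chr2:76982548-76982797, minus strand: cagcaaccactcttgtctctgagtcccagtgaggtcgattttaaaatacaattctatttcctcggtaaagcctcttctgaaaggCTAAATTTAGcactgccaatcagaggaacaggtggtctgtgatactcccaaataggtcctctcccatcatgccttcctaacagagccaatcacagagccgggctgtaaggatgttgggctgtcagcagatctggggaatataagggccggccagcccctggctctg
Ldb3, GRCm38.p6 chr14:34588683-34588931, minus strand: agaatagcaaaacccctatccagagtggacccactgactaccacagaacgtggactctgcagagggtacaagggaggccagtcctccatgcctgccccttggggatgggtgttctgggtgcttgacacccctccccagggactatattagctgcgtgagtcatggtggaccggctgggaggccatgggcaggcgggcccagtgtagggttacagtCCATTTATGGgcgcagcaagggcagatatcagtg
Actn2, GRCm38.p6 chr13:12340761-12340982, minus strand: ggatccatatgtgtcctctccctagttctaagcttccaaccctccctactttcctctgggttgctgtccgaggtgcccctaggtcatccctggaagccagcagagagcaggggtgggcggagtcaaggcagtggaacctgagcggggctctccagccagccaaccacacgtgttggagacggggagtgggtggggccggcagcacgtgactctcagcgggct
Csrp3, GRCm38.p6 chr7:48848052-48848301, minus strand: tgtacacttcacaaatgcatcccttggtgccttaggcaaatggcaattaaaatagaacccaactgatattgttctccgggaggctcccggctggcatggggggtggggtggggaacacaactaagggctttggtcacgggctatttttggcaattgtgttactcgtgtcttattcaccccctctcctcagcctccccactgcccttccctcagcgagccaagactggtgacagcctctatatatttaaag
Myoz2, GRCm38.p6 chr3:123035016-123035237, minus strand: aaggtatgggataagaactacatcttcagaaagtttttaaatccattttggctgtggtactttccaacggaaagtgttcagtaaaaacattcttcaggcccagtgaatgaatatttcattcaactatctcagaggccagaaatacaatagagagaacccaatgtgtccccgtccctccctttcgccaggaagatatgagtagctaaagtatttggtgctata

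Between the transduced libraries, 3 of the 10 genes were higher in GMTMS-iCMs by over 1, namely Ttn (difference 1.68), Actn2 (1.40) and Ldb3 (1.13), and none was lower. Of all genes 2.33% were higher and 2.84% lower by this rule, and of those with more than 10 counts 6.40% and 9.60%. With DESeq2 size factors 8 of the 10 genes were higher and Myoz2 was lower, but the shares of all genes on that scale were not computed. The median difference of the 10 genes was 0.88, against 0.01 over all genes counted. The ratio of GMTMS-iCMs to the library labelled GMTMM was above 1 by more than counting error for 9 of the genes. It was 8.48 for Ttn (7.71 to 9.35), 4.28 for Nebl (1.51 to 14.8), 3.31 for Actn2 (2.61 to 4.24) and 2.42 for Ldb3 (2.16 to 2.70). Csrp3, Smpx, Tcap and Fhod3 had ratios of 2.25, 2.16, 2.13 and 2.01, and Cap2 had the lowest of the 9, 1.45 (1.19 to 1.77). The 5 cardiomyocyte markers above 3 counts in both libraries ranged from 2.18 for Tnnt2 (2.09 to 2.27) to 3.79 for Tnni3 (3.23 to 4.46). The interval of Ttn lay above and that of Cap2 below all of these. The fibroblast and endothelial markers also differed between these libraries, with median differences of -3.40 and -4.23. Of the 5 macrophage markers 4 were higher in GMTMS-iCMs, with a median of 1.23. The part of these differences in the values of the 10 genes was not tested.

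**Figure D2:**
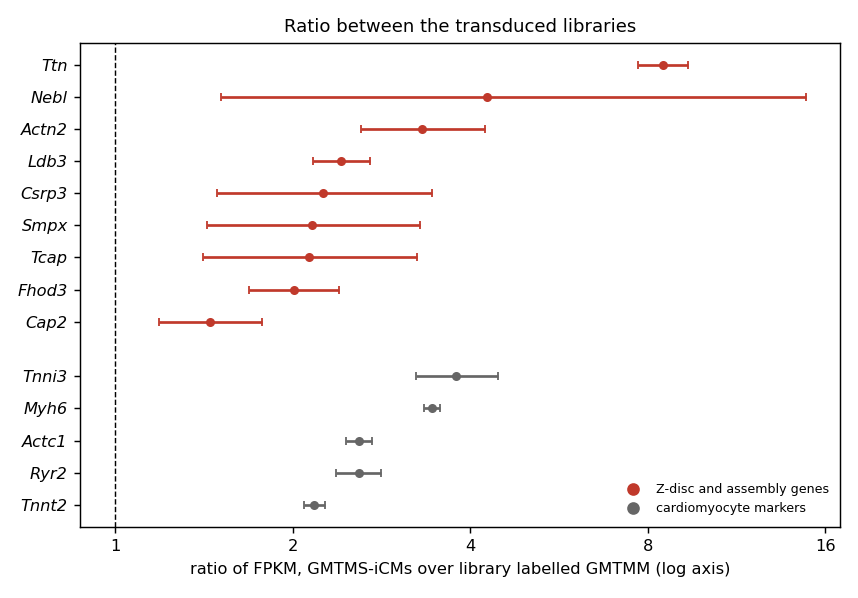
Ratio of FPKM of GMTMS-iCMs to the library labelled GMTMM on a log axis for 9 of the 10 genes and for 5 cardiomyocyte markers, with 95% Clopper-Pearson intervals and a dashed line at 1. Ttn lies to the right of all markers at 8.48 and Cap2 to the left of them at 1.45, and Myoz2 is left out because it had 0 counts in GMTMS-iCMs.

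The ratios were also set against those of single cardiomyocyte genes, which removes the scaling of the libraries. Relative to Tnnt2, the change between the transduced libraries was 0.978 for Tcap (0.647 to 1.50), 1.11 for Ldb3 (0.987 to 1.25), 1.03 for Csrp3 (0.684 to 1.59), 0.923 for Fhod3 (0.771 to 1.11) and 0.993 for Smpx (0.658 to 1.52). For these genes a change unlike that of Tnnt2 was not detectable, within the intervals given. Relative to Tnnt2, Ttn was 3.90 times higher (3.51 to 4.33) and Actn2 1.52 times higher (1.20 to 1.96) in GMTMS-iCMs, and Cap2 stood at 0.667 (0.544 to 0.819). The choice of gene mattered. Relative to Myh6, whose promoter drives the sorted reporter, Ttn stood at 2.46 (2.23 to 2.73), Actn2 at 0.963 (0.756 to 1.23) and Ldb3 at 0.702 (0.626 to 0.788). Tcap, Fhod3 and Smpx were also below 1 against Myh6, at 0.618 (0.409 to 0.945), 0.583 (0.488 to 0.697) and 0.627 (0.416 to 0.958). Relative to Ryr2, the calcium release channel, Ttn stood at 3.28 (2.88 to 3.74), Actn2 at 1.28 (0.992 to 1.66), Fhod3 at 0.776 (0.638 to 0.945) and Cap2 at 0.561 (0.451 to 0.699). Ttn was above 1 and Cap2 below 1 against each of the 3 genes.

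Because the gene model of Ttn is so long, its ratio was set beside those of other long genes. Among protein-coding genes with over 10 counts in both transduced libraries, the median log2 ratio of FPKM was -0.11 for 1462 genes under 2000 exon bases, 0.15 for 4024 genes from 5000 to 10000 bases and 0.44 for 94 genes of 20000 bases or more. The ratio thus moved with gene length, and its part in the value of Ttn was not tested. The log2 ratio of Ttn was 3.08, the highest of these 94 genes, of which 95% lay below 1.93. Ryr2, with 28790 exon bases, had a ratio of 2.59 (2.37 to 2.83). Over the 14550 genes counted in both libraries, with over 10 counts in 1 of them, 0.529% had a larger ratio than Ttn and 24.8% a larger ratio than Cap2.

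Several of the 10 genes have relatives that act in many cell types, and the level of each was set against the summed FPKM of its family. Actn2 was 0% of the alpha-actinins in MICFs, where 3 counts would be 0.0515%, and 7.15% in GMTMS-iCMs (6.35 to 8.01). In the library labelled GMTMM it was 1.65% (1.34 to 2.01). Actn4, the main relative in all libraries, which crosslinks actin in non-muscle cells, had 67.4, 60.2 and 74.0 FPKM. Actn3, the alpha-actinin of fast skeletal muscle, had 38, 147 and 151 counts and exceeded MICFs by 1.83 in GMTMS-iCMs and by 1.52 in the other transduced cells. Csrp3 made up 1.67% of its family in GMTMS-iCMs (1.30 to 2.11) and 0.401% in the library labelled GMTMM (0.284 to 0.550). Csrp1 had 143, 153 and 288 FPKM, so the widely expressed relative dominated every library.

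Fhod3 and Ldb3 took larger shares. Fhod3 was 3.27% of the summed FPKM of both FHOD formins in MICFs (2.10 to 4.83), 43.0% in GMTMS-iCMs (40.3 to 45.6) and 25.2% in the library labelled GMTMM (22.7 to 27.8). Fhod1, its widely expressed relative, had 8.74, 8.98 and 10.00 FPKM. Ldb3 was 2.02% of the PDZ and LIM genes in MICFs (1.63 to 2.48), 33.2% in GMTMS-iCMs (31.8 to 34.6) and 8.36% in the library labelled GMTMM (7.69 to 9.06). In this family Pdlim1 and Pdlim7, adaptors of actin stress fibres, were lower in GMTMS-iCMs than in MICFs by 2.69 and 1.57, and as a share the value of Ldb3 depends on their levels as well as its own. Pdlim1 had 1140, 80 and 1252 counts, and in the library labelled GMTMM its difference from MICFs was 0.16. Cap2 was 0.455% of the cyclase-associated proteins in MICFs (0.312 to 0.642), 4.07% in GMTMS-iCMs (3.57 to 4.62) and 3.68% in the library labelled GMTMM (3.19 to 4.22), beside 117, 132 and 101 FPKM of Cap1. Nebl stayed at or under 0.250% of its family, most of which was Lasp1. Myoz1, the myozenin of fast skeletal muscle, had 2, 12 and 12 counts where Myoz2 had 1, 0 and 10. Over all 11 widely expressed relatives, Csrp2 was higher in GMTMS-iCMs by 1.17 and in the library labelled GMTMM by 1.79. Only Pdlim1 and Pdlim7 were lower in GMTMS-iCMs. All 11 had more than 10 counts. Beside this, the same rule placed 9.29% of everything past that filter above MICFs in GMTMS-iCMs, and 9.05% below. For the library labelled GMTMM these shares were 6.55% and 3.61%.

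**Figure D3:**
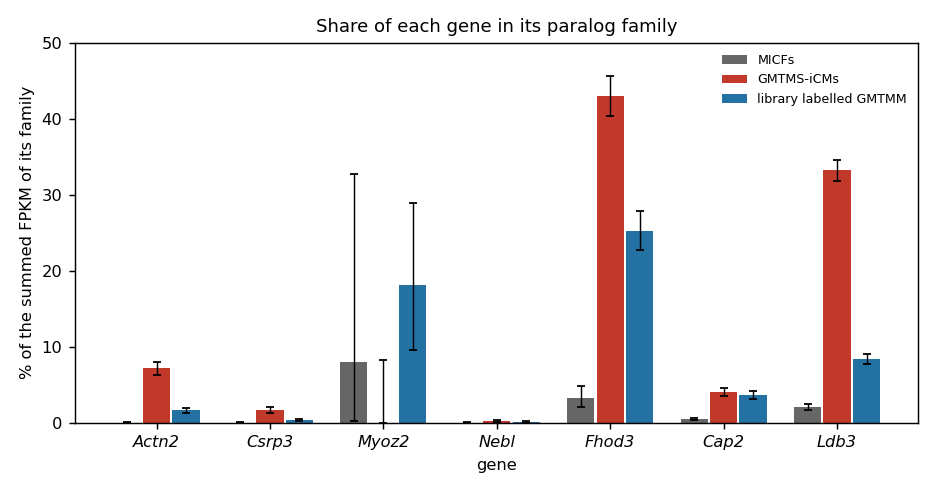
Share of 7 of the 10 genes in the summed FPKM of their family (vertical, in %) for each of the 3 libraries, with bars for exact 95% Poisson intervals on the gene's own counts (3 counts as the upper limit where it had 0). Fhod3 reached 43.0% and Ldb3 33.2% in GMTMS-iCMs, while Actn2 reached 7.15% and Csrp3 1.67%.

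Of 24 further Z-disc and costamere genes, 18 with more than 10 counts, GMTMS-iCMs showed 3 above MICFs and 5 below, and the median difference was 0.09. Of all genes with more than 10 counts, 9.29% were above and 9.05% below, so the count above is near that share. Actn3, Ankrd1 (1.31), a stress-induced titin partner, and Flnc (1.19), the muscle filamin, were higher. Pdlim1, Fhl1 (-2.54), Fhl2 (-1.64), Pdlim7 and Sorbs2 (-1.04) were lower. All 7 fibroblast markers were lower as well, by a median of -3.04, and whether the 2 are connected was not tested. In the library labelled GMTMM 3 of the 24 were higher (Des, Actn3 and Pdlim3) and none was lower, with 17 of them over 10 counts. Beside this, 6.55% of all genes with more than 10 counts were higher there and 3.61% lower. Myot and Mypn, partners of alpha-actinin in mature Z-discs, had 0 counts throughout, except for 7 of Mypn in GMTMS-iCMs. Of 12 M-band and titin-associated genes, none was lower in GMTMS-iCMs, and Trim63, a ubiquitin ligase of muscle, was among those higher, by 1.36. In the library labelled GMTMM none of the 12 was called. Myom1, which crosslinks myosin at the M-band, had 167, 211 and 173 counts, and Myom2 had 0, 51 and 26.

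Of 10 genes for the assembly and length of thin filaments, Tmod1 (1.73) and Lmod2 (1.41), which act at the pointed end of actin, were higher in GMTMS-iCMs than in MICFs and none was lower. The median difference of the list was -0.01, with 4 of 10 above 0, and 9.29% of all genes with more than 10 counts were higher. Tmod1 had 63, 207 and 89 counts and Lmod2 had 0, 28 and 18. None of these 10 was called in the library labelled GMTMM. Of 10 chaperone genes of the sarcomere, 4 were higher in GMTMS-iCMs (Hspb7, Unc45b, Cryab and Hspb1). In the library labelled GMTMM 5 were higher (Hspb7, Bag3, Hspb1, Hspb2 and Cryab). Among all genes with more than 10 counts, the shares higher than in MICFs were 9.29% and 6.55%, in this order. That filter was passed by 9 of the 10 chaperone genes in either comparison. Hspb7, a small heat shock protein of heart muscle that binds filamin C, had the largest differences, 3.53 and 2.81, from 83, 929 and 674 counts. Unc45b, the myosin chaperone, was higher by 1.30 and had 98, 199 and 184 counts. The median differences of the chaperones were 0.81 and 1.02.

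**Figure D4:**
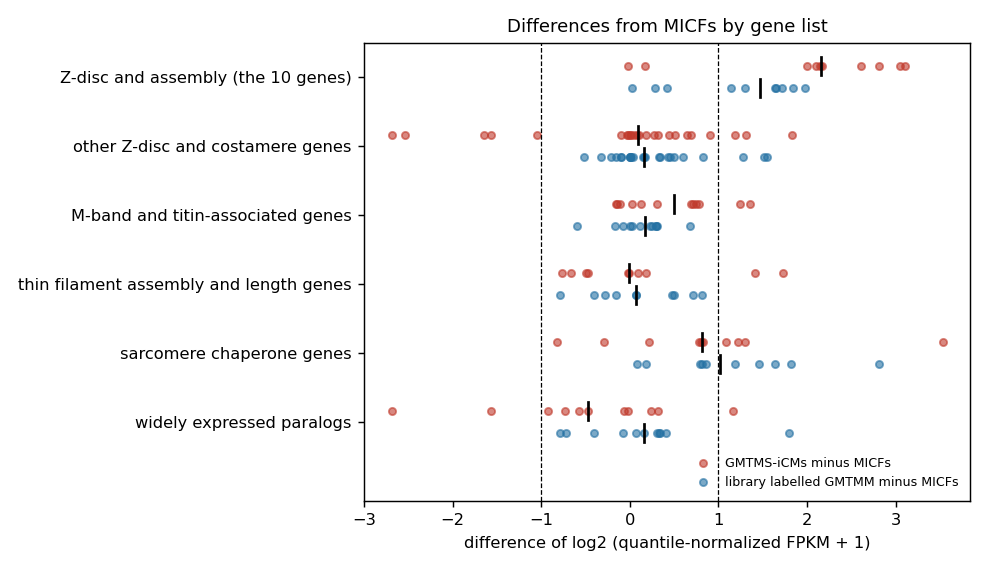
Difference from MICFs in log2 (quantile-normalized FPKM + 1) for each gene of 6 lists (rows), with GMTMS-iCMs and the library labelled GMTMM as separate rows of points, black bars at the medians and dashed lines at the limits of 1 in either direction. The 10 Z-disc and assembly genes have medians of 2.16 and 1.47, and those of the other Z-disc and costamere genes are 0.09 and 0.16.

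The genes whose pattern over the 3 libraries lay closest to that of Actn2 were looked up among 15450 others with over 10 counts in the highest library. By Euclidean distance on the log2 scale they were Prl7b1 (0.15), Car14 (0.18), Ryr2 (0.24), Cd69 (0.26) and Slamf1 (0.26). Ryr2 had 0, 1570 and 763 counts, beside 0, 253 and 96 of Actn2. Cd69 and Slamf1 are surface receptors of immune cells, with 462 and 451 counts in GMTMS-iCMs. With 3 libraries such likeness is a description only.

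Counts were given per gene, so the isoforms of the 10 genes could not be separated. In GENCODE M21, exons of other genes on the opposite strand cover 0.388% of the exon bases of Ttn, 4.26% of those of Fhod3 and 2.89% of those of Cap2. For Fhod3 this is a share of the M21 model of 7251 exon bases, whereas the deposited tables give a gene length of 5408. Since the strand setting of the counting is not known, reads from these stretches cannot be assigned to either gene. At most 1.97% of the 50-base words of the longest transcript of any of the 10 genes occur in another gene.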

How the data were processed

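RNA-seq of 3 libraries was analysed, 1 of MICFs, 1 of GMTMS-iCMs and 1 labelled GMTMM, and no p-value can be computed. The authors deposited raw counts per gene and FPKM per gene. The submitters' processing notes name HISAT2 2.0.5 and mm9, whereas the gene coordinates in the tables are those of GRCm38. The counting tool and its handling of strand and multiply matched reads are not given in the sources used here. The column of MICFs carries another abbreviation and was matched by elimination, as each other column names a cocktail. The totals were 10624118 to 11904484 counts. The deposited FPKM use library sizes 1.21, 0.874 and 0.981 times the totals, in the order MICFs, GMTMS-iCMs, library labelled GMTMM. These library sizes stand in the same proportions to each other as the DESeq2 size factors (1.26, 0.811 and 1.02).

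FPKM were quantile-normalized over the 3 libraries, the study's method, and transformed as log2 (value + 1). Differences over 1 were called. Ratios of FPKM have 95% Clopper-Pearson intervals on the counts, levels have exact Poisson intervals, and ratios relative to another gene have exact conditional intervals of the odds ratio. A library at 0 counts was set at 3 counts. Named genes were the 10 genes, their paralogs, the delivered factors, at most 4 genes each way per list with over 10 counts, and the 5 genes nearest to Actn2. The genes and lists were chosen with earlier results of these data known. Bag3, Hspb2, Sorbs2, Des, Myot, Mypn, Myom1, Myom2, Xist and the comparisons with Tnnt2, Myh6, Ryr2 and long genes were chosen after values were seen. Alternatives were FPKM without quantile normalization, a smaller pseudocount (0.1), a difference over 2 and restriction to the 13919 genes that reach 1 FPKM in some library. Others were edgeR's TMM log2 CPM with a prior count of 2, and log2 (count over DESeq2 size factor + 1). A gene of 1 list is not reported here. The steps were tested on simulated data in which only genes with high expected counts in every library were changed. That test does not cover genes at or near 0 counts in MICFs. Tools were Python 3.11.15, SciPy 1.17.1, R 4.3.3, edgeR 4.0.16 and DESeq2 1.42.0.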

Additional observations from a re-analysis of the deposited data

How the results depend on the processing

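No paired analysis was possible because there is 1 library per condition. Under the alternatives no called difference of the 10 genes changed sign. Of 154 values of single genes under alternatives, 65 stayed within counting error and 89 moved. Most moved with a pseudocount of 0.1 or on the scales of TMM or DESeq2 size factors, which enlarge differences of low genes. Against MICFs, 9 genes were higher in GMTMS-iCMs with each of these 3 settings, and 9, 10 and 10 in the library labelled GMTMM. The median difference of GMTMS-iCMs from MICFs was 4.36 with a pseudocount of 0.1, 2.34 for the 8 genes that reach 1 FPKM in some library, 4.25 with TMM and 4.52 with DESeq2 size factors. For the library labelled GMTMM against MICFs these medians were 2.89, 1.63, 3.28 and 3.49, and 1.48 without quantile normalization. In GMTMS-iCMs against the library labelled GMTMM, 7 genes were higher and 1 lower with a pseudocount of 0.1, 6 and 1 with TMM, and 8 and 1 with DESeq2 size factors. The shares of all genes called under these settings were not computed. A difference over 2 gave 8 genes higher in GMTMS-iCMs than in MICFs, 0 in the library labelled GMTMM and 0 between the transduced libraries. Of the 8, Csrp3 only just passed, at 2.00, and stood at 1.89 with MICFs set at 3 counts. The lower limits of counting error were under 2 for Csrp3 (1.81), Cap2 (1.92) and Smpx (1.94). Normalizing GMTMS-iCMs and MICFs alone, an alternative chosen after seeing the data, gave 8 genes higher with a median of 2.14. Depth limits Myoz2 and Nebl, with at most 17 counts in any library.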
